A study of Sus scrofa with 20 samples.

Results

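Smooth muscle contractile genes encode the actin, myosin and filament-binding proteins by which vascular and visceral smooth muscle cells shorten. In the adrenal gland such cells lie in the walls of arterioles and veins, and cells with contractile proteins also occur in the connective tissue capsule. Contraction starts when calcium and calmodulin activate myosin light chain kinase, and many genes of this machinery are switched on together by serum response factor with its partner myocardin. Of this programme, 8 genes were selected by name: ACTA2, MYH11, TAGLN, CNN1, DES, ACTG2, LMOD1 and SYNPO2. A transcript probe set was named for 7 of these 8 genes, among 13588 named genes on the array in all. CNN1, the gene of calponin 1, was not found under its symbol in the array annotation, so that no value is given for it.

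The adrenals came from 20 slaughtered pigs of the German Landrace breed. Of these, 10 were high-reactive (HR) and 10 low-reactive (LR), picked as extremes of a backtest that scores how strongly a piglet struggles when laid on its back, and picked also by their haplotypes within a QTL for coping behavior on chromosome 12. The sources used here name no treatment, the labels call all of them adult, the methods place slaughter in the sixth month of life on average, and no sex, litter or batch is named. One Affymetrix Porcine Snowball array was used per gland, and values are log2 expression values after robust multichip averaging (RMA). In the RefSeq annotation of Sscrofa11.1, 0 of the 8 genes lie on chromosome 12. Since probes differ in brightness, levels of different genes are not set against each other.

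The array of animal HR2835 stood apart. It correlated with the others at 0.938 on average, whereas the other 19 arrays reached 0.977 to 0.983. Over all named genes, HR2835 held the lowest of the 20 values for 34.2% and the highest for 17.4%. Results are therefore given with and without this animal. Genes of the gland itself were bright in all animals, and the mean level over 6 measured genes of the cortex lay at 12.73 in HR2835, between 13.00 and 13.19 in the other HR animals and between 12.98 and 13.15 in LR animals. Precision is limited by the number of arrays, and in RNA of whole glands fewer cells of a type and less RNA per cell cannot be told apart.

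The measured contractile genes lay close together in HR and LR, and none passed the test between them. ACTA2, the smooth muscle alpha actin, averaged 10.59 ± 0.36 in HR animals and 10.70 ± 0.27 in LR animals on the log2 scale (SD, n = 10 each). In HR animals it ranged from 9.68 to 10.995 with a median of 10.65, and in LR animals from 10.31 to 11.11 with a median of 10.74. Without HR2835, which held the lowest value, the HR animals began at 10.44 and lay within the range of LR. The difference between HR and LR was -0.11 (standard error 0.14, 95% interval -0.39 to 0.17) in limma, a linear model with a moderated variance, and -0.011 without HR2835.

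**Figure D1:**
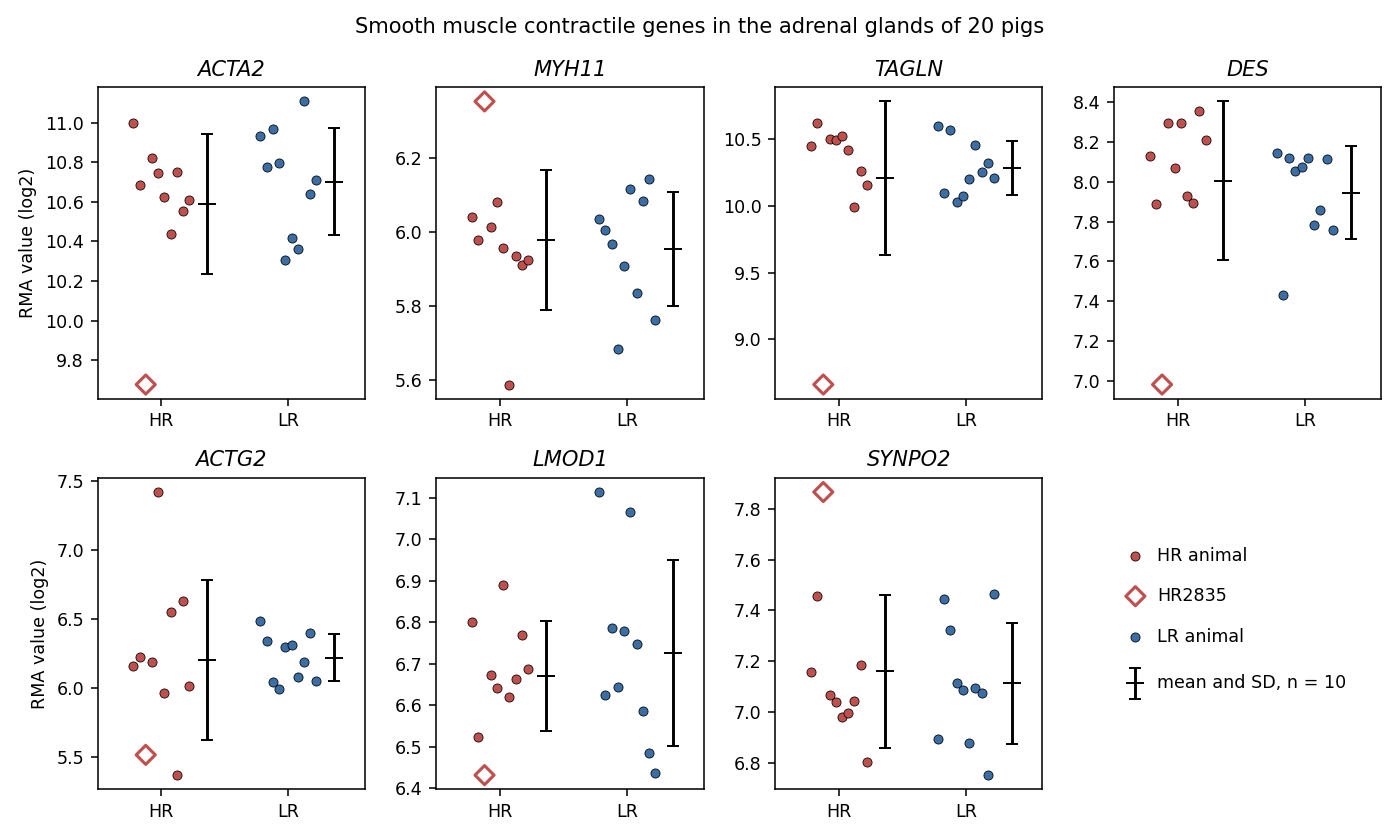
Log2 RMA values of the 7 measured contractile genes in each animal, HR left and LR right in each panel, with the mean and SD of 10 animals as bars and HR2835 as an open diamond. HR2835 is the lowest animal for ACTA2, TAGLN, DES and LMOD1 and the highest for MYH11 and SYNPO2, and the remaining HR animals overlap LR in every panel.

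TAGLN encodes transgelin (SM22 alpha), an actin-binding protein and early marker of smooth muscle. It lay at 10.21 ± 0.58 in HR glands, against 10.28 ± 0.20 in LR glands, with HR animals from 8.66 to 10.62 (median 10.43) and LR animals from 10.03 to 10.60 (median 10.23). The value of 8.66 belonged to HR2835, and the next HR animal lay at 9.99, so that the mean was lower in HR while the median was higher. Accordingly the sign of the difference rested on 1 animal, with -0.074 (95% interval -0.45 to 0.30) over all animals and 0.098 (95% interval -0.099 to 0.30) without HR2835. The SD of TAGLN in HR was 0.20 without this animal, as in LR.

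DES encodes desmin, the intermediate filament protein that links the contractile bundles of muscle cells. HR animals lay between 6.98 and 8.36 (median 8.10) and LR animals between 7.43 and 8.15 (median 8.06), and the lowest values belonged to HR2835 and LR2562. HR glands averaged 8.01 ± 0.40 and LR glands 7.95 ± 0.23, which differ by 0.059 (95% interval -0.23 to 0.35). Without HR2835 it was 0.17 (standard error 0.098, 95% interval -0.031 to 0.38), the smallest p among the measured members (unadjusted p = 0.0926, adjusted p = 0.664 in limma). In that comparison 4 of the 9 HR animals, HR2965, HR2897, HR2857 and HR2978, lay above the highest LR animal. By a second probe set of DES, HR2897 (6.95) and HR2965 (6.765) lay above the highest LR animal (6.761). There HR2857 (6.60) and HR2978 (6.65) lay below it.

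MYH11 encodes the smooth muscle myosin heavy chain, the motor protein of the contractile apparatus. Its probe set had a narrow range, from 5.59 to 6.35 in HR (median 5.97) and from 5.68 to 6.14 in LR (median 5.99). The highest value was that of HR2835, contrary to ACTA2, TAGLN and DES, where this animal was the lowest. It averaged 5.98 ± 0.19 in HR glands, against 5.95 ± 0.15 in LR glands, and the difference was 0.024 (95% interval -0.15 to 0.20), or -0.017 without HR2835.

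ACTG2, the gamma actin of enteric smooth muscle, varied far more among HR than among LR animals. HR animals spanned 5.37 to 7.42 (median 6.17) and LR animals 5.99 to 6.49 (median 6.24), which corresponds to a 4.15-fold range in HR and a 1.41-fold range in LR. HR2894 lay at the top and HR2915 at the bottom, and HR2835 was next to the lowest at 5.52. The remaining HR animals lay between 5.96 and 6.63, so that the wide range rested on these few animals. An SD without HR2894 and HR2915 was not computed, and ACTG2 had no second named probe set to compare. The SD was 0.58 in HR, 0.56 in HR without HR2835 and 0.17 in LR, and a difference in spread was not tested. Without HR2835, 98.9% of the 2750 other named genes with a mean within 0.5 of ACTG2 had a smaller SD among the HR animals, against 24.7% among the LR animals. The mean was 6.20 in HR animals, against 6.22 in LR animals, and the difference -0.016 (95% interval -0.39 to 0.36). Without HR2894 it was -0.15, and without HR2915 it was 0.076.

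LMOD1 and SYNPO2 encode proteins that act on actin filaments, leiomodin 1 as a nucleator of filaments in smooth muscle and synaptopodin 2 (myopodin) as a filament-binding protein of muscle. LMOD1 lay between 6.43 and 6.89 in HR (median 6.67) and between 6.44 and 7.11 in LR (median 6.70), with LR2016 and LR2635 above all other animals. The difference was -0.057 (95% interval -0.24 to 0.13), and -0.030 without HR2835. SYNPO2 lay between 6.80 and 7.87 in HR (median 7.06) and between 6.75 and 7.46 in LR (median 7.09), and again the highest value was that of HR2835. It differed by 0.048 (95% interval -0.20 to 0.30), or by -0.031 without that animal.

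**Figure D2:**
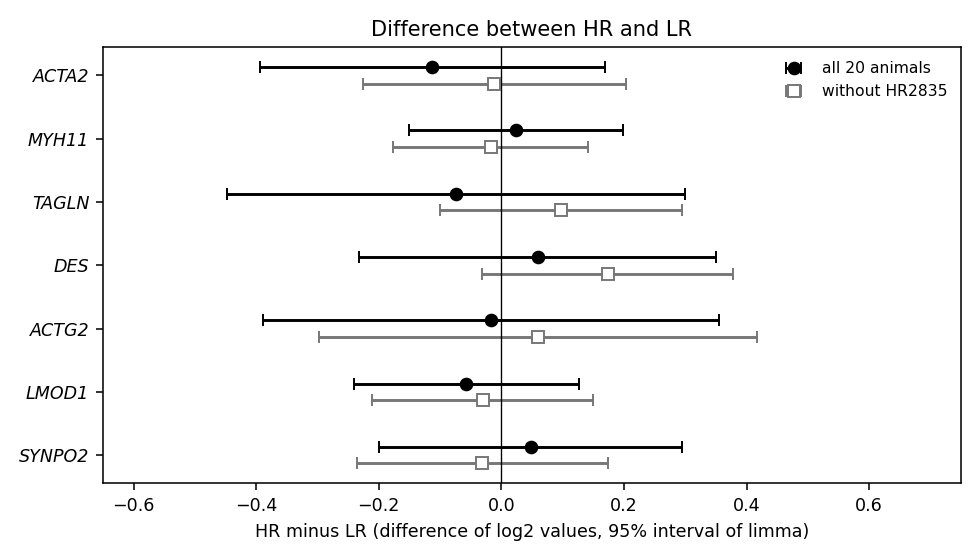
Difference of mean log2 values, HR minus LR, for the 7 measured contractile genes, with 95% intervals of limma over all 20 animals (filled circles) and without HR2835 (open squares). Every interval spans 0, and the differences lie between -0.11 for ACTA2 and 0.059 for DES with all animals.

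In limma, 0 of the 7 measured genes passed an adjusted p of 0.05 over 47722 probe sets, where 0% of all probe sets were called. At an unadjusted p under 0.05 the counts were 0 of 7 members and 3.65% of the probe sets, and without HR2835 they were 0 of 7 and 7.89%. The higher mean was found in HR for 3 members (DES, SYNPO2 and MYH11) and in LR for 4, while 46.3% of the 13588 named genes were higher in HR. Without HR2835 the count was again 3, then of DES, TAGLN and ACTG2, beside 53.2% of the named genes. The median difference was -0.016 over the members and -0.010 over all named genes. The interval of TAGLN, from -0.45 to 0.30 with all animals, was about as wide as that of ACTG2, and without HR2835 that of ACTG2 was the widest, from -0.30 to 0.42.

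The animal HR2835 did not show a common shift of the contractile genes. It held the lowest of the 20 values for 4 of the 7 members and the highest for 2, while ACTG2 was the second lowest. Its difference from the median of the other 19 animals was -1.66 for TAGLN, -1.09 for DES, -1.03 for ACTA2 and -0.24 for LMOD1 on the log2 scale. In contrast, it was 0.79 for SYNPO2 and 0.39 for MYH11. By second probe sets the difference was -1.90 for ACTA2, -0.40 for DES and 0.14 for SYNPO2, so that its size depended on the probe set. Both directions were common in this animal over the whole array (34.2% lowest and 17.4% highest). Its mean level of 12 capsule and fibroblast genes was 7.51, against 8.23 to 8.70 in the other HR animals, and that of 10 endothelial genes 7.13, against 7.54 to 7.93. The lists closest to the members were also low. For 18 thin filament and anchoring genes the mean was 7.38, against 7.77 to 7.98 in the other HR animals and 7.80 to 7.99 in LR. For 13 regulators of the programme it was 6.92, against 7.25 to 7.35 and 7.21 to 7.42. For 15 relatives of the members it was 7.60, against 8.08 to 8.22 and 8.02 to 8.20. Not all lists were low in this animal. For 12 genes of myosin light chains and their control the mean was 8.27, above the other HR animals (7.90 to 8.18) and LR (7.87 to 8.24). This list mixed both directions. The mean of HR was lower with HR2835 than without it for the light chains MYL9 (9.02 and 9.15) and MYL6 (11.47 and 11.57). It was higher with HR2835 for ROCK2 (6.86 and 6.64), PPP1R12A (8.50 and 8.36) and CALM2 (9.72 and 9.55). For 16 channel, calcium and receptor genes the mean of HR2835 was 7.19, against 6.76 to 7.12 in the other HR animals and 6.79 to 7.31 in LR. For 6 medulla genes, 10.29 lay within the other HR animals (9.82 to 10.68). The part of other cell types in the values of the contractile genes was not tested.

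ACTA2, DES and SYNPO2 were measured by a second transcript probe set each. Both probe sets of ACTA2 ranked the animals alike. The second one lay at 10.43 ± 0.60 in HR and 10.71 ± 0.30 in LR, with Pearson's r = 0.97 in HR (permutation p = 7.0e-05, adjusted p = 2.1e-04) and r = 0.98 in LR (permutation p = 2.0e-05, adjusted p = 1.2e-04). Spearman's rho was 0.99 in HR and 0.96 in LR (permutation p = 3.0e-05 and 4.0e-05, both with adjusted p = 1.2e-04). When the 2 animals farthest out were dropped, r was 0.87 in HR and 0.98 in LR, and it was 0.92 in HR without HR2835 (exact permutation p = 8.7e-04). In 19 animals the second probe set lay between -0.17 and 0.13 of the first, while in HR2835 it was 0.91 lower, at 8.77. Animal-to-animal differences in ACTA2 were thus read alike by separate probe sets outside HR2835. The suffix of the second probe set marks probes shared by several transcripts, and since the smooth muscle actins are nearly identical proteins, a share of its signal from ACTG2 or other actins was not tested.

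For DES the probe sets followed each other less closely once HR2835 was left out. In HR, r of the second probe set with the first was 0.81 (permutation p = 0.0115, adjusted p = 0.0172) with rho = 0.61 (permutation p = 0.0664, adjusted p = 0.0996), but r was 0.36 without the 2 farthest animals and 0.43 without HR2835 (exact permutation p = 0.245). The relation in HR therefore rested on those animals. In LR, r was 0.84 (permutation p = 0.00138, adjusted p = 0.00276) with rho = 0.96 (permutation p = 7.0e-05, adjusted p = 1.4e-04), and r was 0.81 without the 2 farthest animals. Neither of these probe sets passed between HR and LR, with differences of -0.27 for ACTA2 (unadjusted p = 0.18 in limma) and 0.061 for DES (unadjusted p = 0.479). Without HR2835 these were -0.088 (unadjusted p = 0.423) and 0.11 (unadjusted p = 0.166). The second probe set of SYNPO2 lay at 1.43 in both groups, near the lower end of the scale, and did not follow the first (r = 0.054 in HR with permutation p = 0.852, r = 0.21 in LR with permutation p = 0.553, adjusted over the 6 relations p = 0.852 and 0.663, and rho = -0.055 and 0.067 with permutation p = 0.891 and 0.865, both with adjusted p = 0.891).

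**Figure D3:**
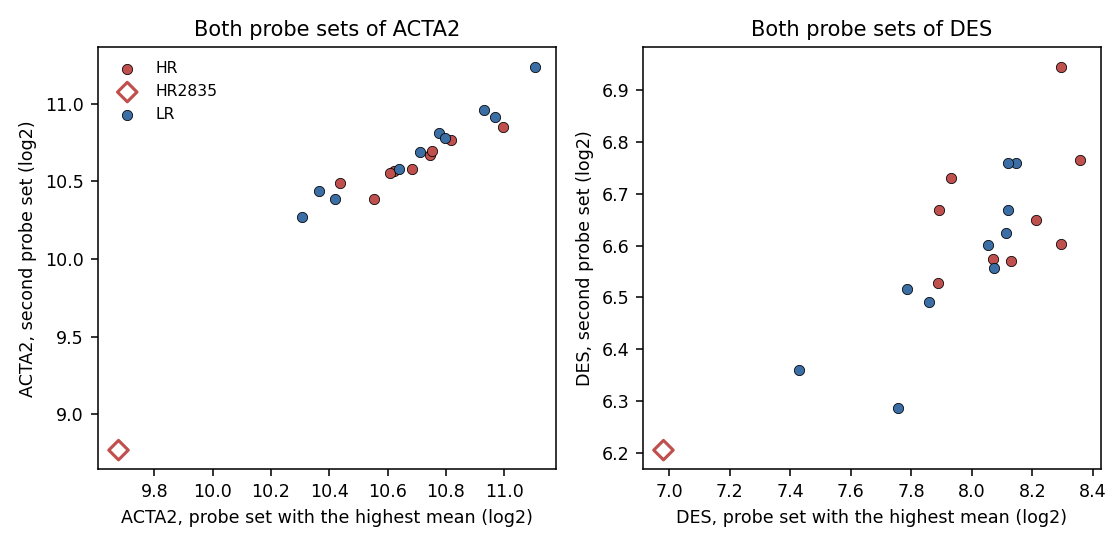
Second probe set (y axis, log2) against the probe set with the highest mean (x axis, log2) of ACTA2 and DES, each point an animal. The points of ACTA2 follow a line with r = 0.97 in HR and 0.98 in LR, and HR2835 (open diamond) falls below it.

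Co-variation over animals was examined for the 21 pairs of measured members within each group. In HR, the highest values of r were those of ACTA2, TAGLN and DES with each other and of DES with LMOD1. MYH11 and SYNPO2 had a negative r with each of these 4 genes, and r = 0.67 with each other. For ACTA2 and TAGLN, Pearson's r was 0.87 (permutation p = 0.0387, adjusted p = 0.252) in HR, but Spearman's rho was 0.42 (permutation p = 0.233, adjusted p = 0.816), and r was 0.047 after the 2 animals with the most extreme ACTA2 were dropped. For TAGLN and DES, r was 0.86 (permutation p = 0.0449, adjusted p = 0.252) with rho = 0.25 (permutation p = 0.495, adjusted p = 0.83), and r = -0.44 without the 2 farthest animals. Without HR2835 these relations did not hold, with r = 0.12 for ACTA2 and TAGLN (exact permutation p = 0.756) and 0.055 for TAGLN and DES (exact permutation p = 0.884). They thus rested on HR2835. In LR animals r was 0.29 for the first pair (permutation p = 0.409, adjusted p = 0.559) with rho = 0.32 (permutation p = 0.365, adjusted p = 0.83), and 0.31 for the second (permutation p = 0.383, adjusted p = 0.559) with rho = 0.45 (permutation p = 0.19, adjusted p = 0.816).

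**Figure D4:**
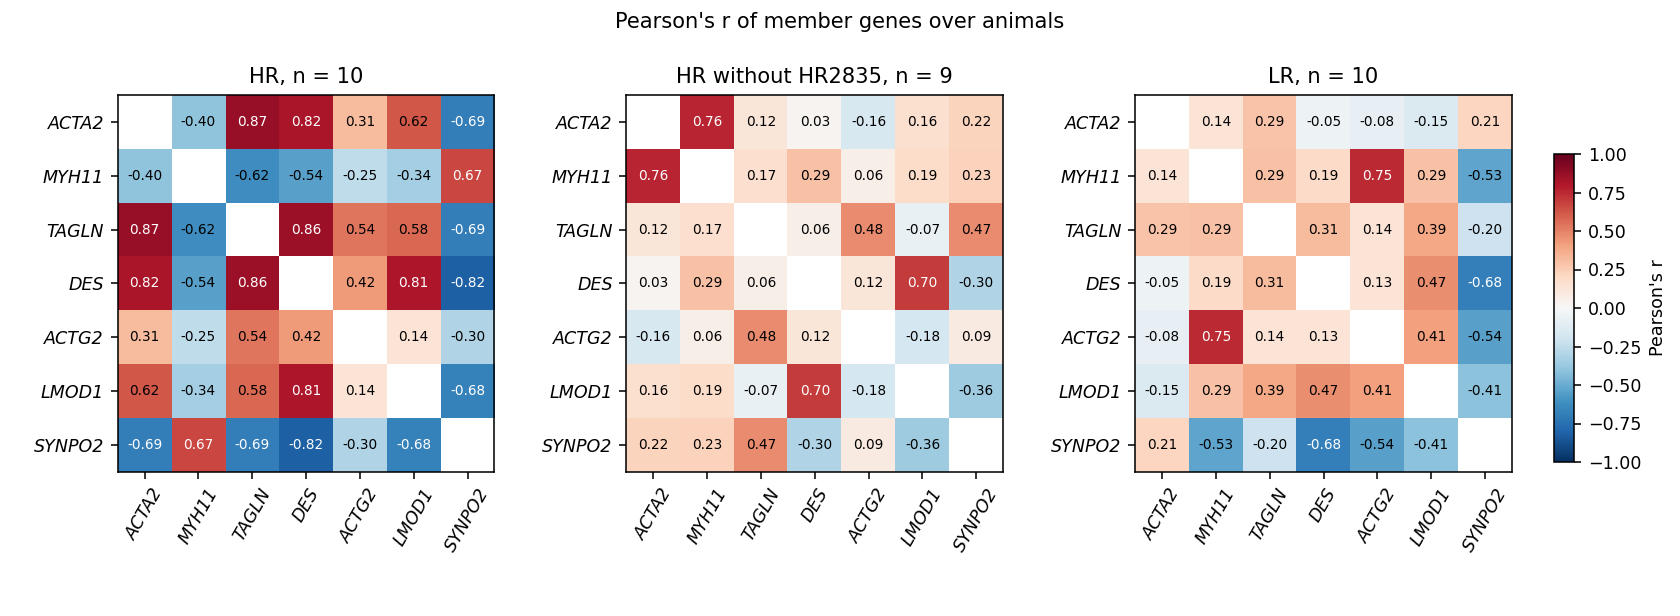
Pearson's r over animals for the 21 pairs of measured contractile genes in HR (10 animals), in HR without HR2835 (9 animals) and in LR (10 animals), on a colour scale from -1 to 1. The block of high values among ACTA2, TAGLN, DES and LMOD1 in HR is reduced to DES and LMOD1 (r = 0.70) without HR2835.

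In HR, in HR without HR2835 and in LR alike, 5 of the 21 pairs had a positive r: ACTA2 with TAGLN, TAGLN with DES, TAGLN with ACTG2, DES with ACTG2 and DES with LMOD1. HR and HR without HR2835 share 9 animals. Since 11 of the 21 pairs were positive in HR and 13 in LR, some share a positive sign by chance. The count of 5 was not tested. For DES and LMOD1, r was 0.81 in HR (permutation p = 0.00198, adjusted p = 0.0832), with rho = 0.81 (permutation p = 0.00743, adjusted p = 0.24) and r = 0.69 without the 2 farthest animals. Without HR2835, r was 0.70 and rho 0.73 (exact permutation p = 0.0332 and 0.0311, adjusted p = 0.349 and 0.261). In LR, r was 0.47 (permutation p = 0.169, adjusted p = 0.374), with a rho of 0.71 (permutation p = 0.0267, adjusted p = 0.281), with r = 0.37 without the 2 farthest animals. With the mean of both DES probe sets the pair passed in HR (r = 0.85, permutation p = 5.0e-04, adjusted p = 0.021). It did not pass in LR (r = 0.58, permutation p = 0.0807, adjusted p = 0.315). This HR value includes HR2835, and r without that animal was not computed for these means.

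The motor gene MYH11 had its highest r with an actin gene in HR without HR2835 and in LR. With ACTG2 it gave r = -0.25 in HR (permutation p = 0.469, adjusted p = 0.616) with rho = -0.14 (permutation p = 0.707, adjusted p = 0.899), and r = 0.059 without HR2835. In LR, r of MYH11 and ACTG2 was 0.75 (permutation p = 0.0147, adjusted p = 0.252), rho was 0.75 (permutation p = 0.0171, adjusted p = 0.24) and r was 0.54 after the 2 farthest animals were dropped. In HR without HR2835 the highest r was that with ACTA2 (r = 0.76 and rho = 0.82, exact permutation p = 0.0223 and 0.0108, adjusted p = 0.349 and 0.24), while with HR2835 r was -0.40 and in LR 0.14. A difference in r between the groups was not tested.

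**Figure D5:**
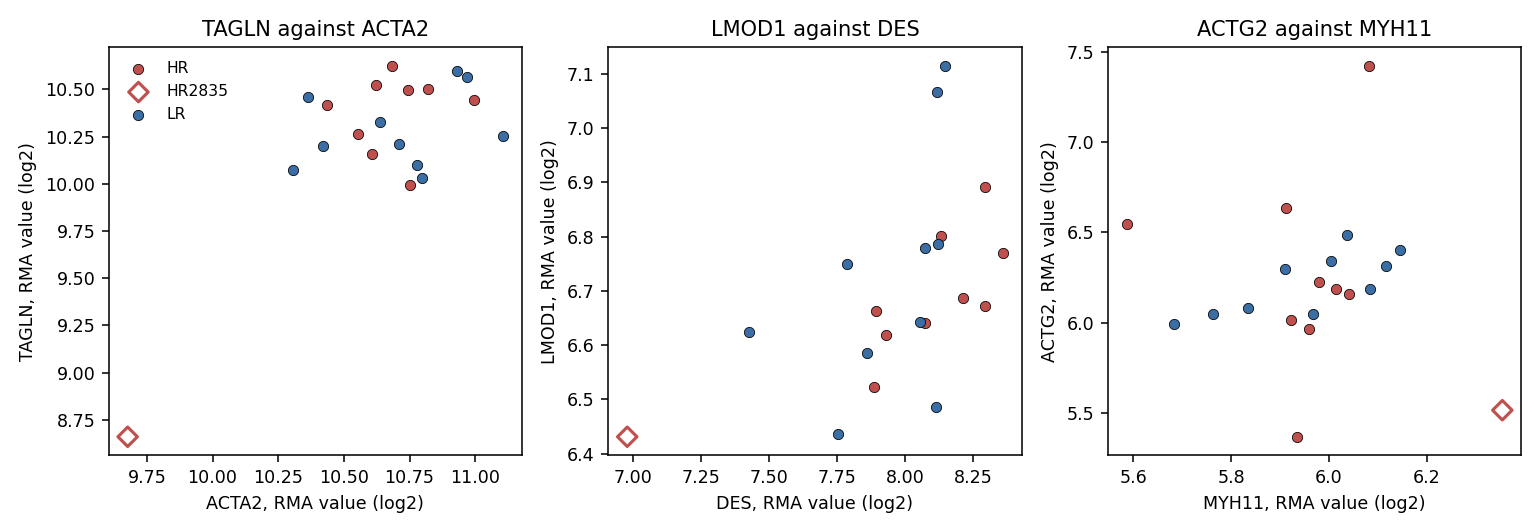
Log2 values of 3 pairs of contractile genes in each animal, with HR in red, LR in blue and HR2835 as an open diamond. TAGLN and ACTA2 form a cloud once HR2835 is left aside, LMOD1 rises with DES, and ACTG2 and MYH11 give r = -0.25 in HR and 0.75 in LR.

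SYNPO2 had a negative r with 5 of the 6 other measured members in HR, with MYH11 as the exception (r = 0.67), with 2 of 6 in HR without HR2835 (DES and LMOD1), and with 5 of 6 in LR, with ACTA2 as the exception (r = 0.21). With DES it gave r = -0.82 in HR (permutation p = 0.023, adjusted p = 0.252) with rho = -0.35 (permutation p = 0.33, adjusted p = 0.83), and r = -0.30 without HR2835 (exact permutation p = 0.457). In LR, r was -0.68 (permutation p = 0.0278, adjusted p = 0.252), rho was -0.60 (permutation p = 0.0746, adjusted p = 0.522) and r was -0.27 without the 2 farthest animals. Of all 42 relations, 21 per group, 0 had an adjusted p under 0.05 by either measure, while 6 pairs in HR and 2 in LR had an unadjusted permutation p under 0.05. The median r was 0.14 in HR, 0.12 in HR without HR2835 and 0.14 in LR. Of the 21 pairs, 11 were positive in HR, 16 in HR without HR2835 and 13 in LR.

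With all 20 animals pooled and the group means removed, 3 of the 21 pairs passed by Pearson's r. These were DES with SYNPO2 (r = -0.77, permutation p = 3.7e-04, adjusted p = 0.00777), ACTA2 with TAGLN (r = 0.71, permutation p = 0.00549, adjusted p = 0.0451) and TAGLN with DES (r = 0.75, permutation p = 0.00645, adjusted p = 0.0451). By rho the pair of DES and LMOD1 passed (rho = 0.67, permutation p = 0.00167, adjusted p = 0.0351). Without HR2835, 0 pairs passed by either measure, with r = -0.55 for DES and SYNPO2 (permutation p = 0.0146, adjusted p = 0.266) and rho = 0.66 for DES and LMOD1 (permutation p = 0.00311, adjusted p = 0.0653).

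By the ranking used here, the contractile genes were not each other's closest neighbours on the array. For every member, the named genes with a mean above the median of all probe sets were ranked by the lowest of Pearson's r in HR, in LR and in HR without HR2835. For LMOD1 the nearest member was DES at rank 149 of 10175 genes, and for DES it was LMOD1 at rank 313. ACTA2 had TAGLN as its nearest member at rank 878, ACTG2 had TAGLN at rank 1635 and TAGLN had ACTG2 at rank 1896. The nearest members of MYH11 and SYNPO2, at ranks 2299 and 5638, had a negative r in at least 1 of these sets. Pairs in which HR2835 lay at opposite ends rank low by this measure. ACTA2 with MYH11, for example, had r = -0.40 in HR and 0.76 in HR without HR2835. Ranks without the set that holds HR2835 were not computed. The genes at the top of these rankings were picked for their r, so that no p is given, and they were chosen for mention after their values were seen.

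ACTA2 was followed closely by TPM2, a tropomyosin of the thin filament, at rank 2 with r = 0.86 in HR, 0.66 in HR without HR2835 and 0.90 in LR. TPM2 lay at 8.99 ± 0.18 in HR and 8.93 ± 0.15 in LR. The gene at rank 1 was HADH, an enzyme of mitochondrial fatty acid oxidation, with 0.66 as the lowest r (rho = 0.64 in HR, 0.50 in HR without HR2835 and 0.78 in LR). For TAGLN the leading gene was PPARD, a nuclear receptor of lipid metabolism, with r = 0.81 in HR, 0.82 in HR without HR2835 and 0.86 in LR, and rho = 0.89, 0.85 and 0.92. ID3, an inhibitor of helix-loop-helix transcription factors, gave r = 0.96, 0.86 and 0.75 with TAGLN in these sets. DES was led by TRAF2, an adaptor of TNF receptors, with r = 0.92, 0.84 and 0.80. BCAR3, an adaptor of integrin signaling, stood near both DES and LMOD1, and was the leading gene of LMOD1 with 0.70 as the lowest r. MYH11 had no close neighbour by this measure, since its leading gene, CYTH3, reached 0.50.

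The leading gene of ACTG2 was SMPD3, a neutral sphingomyelinase, with r = 0.91 in HR, 0.95 in HR without HR2835 and 0.78 in LR. PI16, a marker of fibroblasts, and COL1A1, a chain of type I collagen, were next, with r = 0.74 and 0.73 in HR, 0.74 and 0.84 in HR without HR2835, and 0.83 and 0.81 in LR, followed by TTLL8 and RCSD1 with a lowest r of 0.72 and 0.71. Spearman's rho of ACTG2 and COL1A1 was 0.84 in HR, 0.80 without HR2835 and 0.79 in LR. HR2894, the animal with the highest ACTG2, had the highest SMPD3 (6.70, against 6.30 in the next HR animal and 6.42 in the highest LR animal) and the second highest COL1A1 (10.72), and ranked 5 from the top for PI16, 6 for COL1A2 and 7 for COL3A1. HR2915, with the lowest ACTG2, ranked 2 from the bottom for COL1A1 and PI16, 5 for SMPD3, 7 for COL1A2 and 6 for COL3A1. SMPD3, PI16 and COL1A1 were picked for their r with ACTG2, so that their ranks in these animals partly follow from that choice. They are no separate support, and COL1A2 and COL3A1 were not among these nearest genes. SYNPO2 was led by NETO2, a partner of glutamate receptors, with r = 0.84, 0.82 and 0.86.

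Against the mean of the 7 standardized members, the genes most alike were of mixed function. The first was MAML2, a coactivator of Notch signaling, with r = 0.78 in HR, 0.70 in HR without HR2835 and 0.79 in LR, among 10169 genes ranked. PACS2, a sorting protein, TMEM91, FAT3, an atypical cadherin, PDLIM2, a PDZ and LIM protein of the actin cytoskeleton, and NQO2, a quinone reductase, followed with a lowest r between 0.67 and 0.69. REM1, FLOT1, SPI1 and LOC100520329 completed the 10 genes, down to a lowest r of 0.62. All 10 were selected for their r and get no test. Each member is itself part of this mean, so that a positive r of a member is partly built in. The values of members are therefore not set against those of the 10 genes. Of the members themselves, TAGLN had the highest lowest r against this mean, 0.62, followed by ACTG2 (0.51), ACTA2 (0.45), DES (0.43) and LMOD1 (0.28). MYH11 gave -0.19 in HR, 0.70 in HR without HR2835 and 0.63 in LR, and SYNPO2 -0.48, 0.36 and -0.30.

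Partners of the members in the contractile apparatus were tested in the same fit, and 0 passed after adjustment. As background for the directions in each list, 46.3% of all named genes were higher in HR, and 53.2% without HR2835. Of the thin filament and its anchoring sites, 18 of 20 listed genes were measured, 5 higher and 13 lower in HR, with a median difference of -0.064, and without HR2835 they were 8 higher and 10 lower, with a median of -0.026. ITGA8, an integrin subunit of smooth muscle and mesenchyme, had the smallest p, at 6.27 ± 0.31 in HR glands, against 6.65 ± 0.50 in LR glands, which differ by -0.38 (unadjusted p = 0.0392 in limma, and 0.0585 without HR2835). Among the brightest genes, ACTN1, an alpha actinin, averaged 10.64 ± 0.28 in HR glands, against 10.69 ± 0.13 in LR glands, PDLIM5, a LIM protein that binds actinin, differed by -0.11 and HSPB6, a small heat shock protein of smooth muscle, by -0.19. VCL, vinculin, differed by -0.21. Without HR2835 the difference was 0.033 for ACTN1, -0.17 for PDLIM5, -0.019 for HSPB6 and -0.15 for VCL. FLNA, filamin A, differed by 0.11, and by 0.21 without HR2835 (unadjusted p = 0.0348). At an unadjusted p under 0.05, 1 of the 18 genes was counted, beside 3.08% of all named genes, and without HR2835 again 1, beside 8.04%.

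Of the myosin light chains and the enzymes that act on them, 12 of 15 genes were measured and 8 were lower in HR, with a median difference of -0.048, and without HR2835 7 were lower, with a median of -0.11. MYL9, the regulatory light chain of smooth muscle, averaged 9.02 ± 0.56 in HR glands, against 9.28 ± 0.32 in LR glands, and MYLK, the kinase that starts contraction, 7.52 ± 0.28 in HR glands, against 7.60 ± 0.27 in LR glands. MYL6, the essential light chain, was at 11.47 in HR glands, against 11.48 in LR glands, and CALM2, a calmodulin, differed by -0.081. Without HR2835 the difference was -0.13 for MYL9, 0.092 for MYL6 and -0.24 for CALM2. PPP1CB, the catalytic subunit of myosin phosphatase, differed by -0.25 (unadjusted p = 0.0839) and by -0.30 without HR2835 (unadjusted p = 0.0319), the 1 gene of 12 under 0.05 in that comparison, beside 8.04% of the named genes, and 0 of 12 with all animals, beside 3.08%. These 30 genes of both lists were also set against the 7 members, with 420 relations over the groups, and 0 passed after adjustment by r or by rho. The smallest adjusted p by r, 0.0777, was shared by TAGLN with CRYAB, a small heat shock protein (r = 0.95 and rho = 0.93 in HR, permutation p = 3.7e-04 and 2.6e-04), and TAGLN with MYL6 (r = 0.98 and rho = 0.76 in HR, permutation p = 3.6e-04 and 0.0146). When the 2 animals farthest out were dropped, r was 0.68 for CRYAB and 0.76 for MYL6, and without HR2835 it was 0.76 and 0.84 (exact permutation p = 0.0178 and 0.00328, adjusted p = 0.443 and 0.397). The median r of TAGLN with the 30 genes was 0.51 in HR, 0.22 in HR without HR2835 and -0.015 in LR.

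Of 16 listed regulators of the programme, 13 were measured, 11 of them with a lower mean in HR and a median difference of -0.069. SRF, the transcription factor of the contractile genes, averaged 7.97 ± 0.22 in HR glands, against 8.06 ± 0.21 in LR glands, and its partner MYOCD 4.65 ± 0.19 in HR glands, against 4.71 ± 0.21 in LR glands. MKL1, a coactivator of SRF that responds to free actin, differed by -0.10 (unadjusted p = 0.176) and KLF4, a repressor of the programme, by -0.13. The brightest were TGFBR2, a receptor of TGF beta, GATA6, a transcription factor of mesodermal tissues, and YAP1, a coactivator of the Hippo pathway, with differences of -0.069, 0.0027 and -0.029. Without HR2835 these were 0.072, 0.0997 and 2.0e-04, and the difference was -0.026 for SRF and -0.044 for MYOCD. Without HR2835, 7 of the 13 were lower in HR and the median was -0.026. At an unadjusted p under 0.05 the count was 0 in both comparisons.

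Channels, calcium stores and receptors for vasoactive hormones had the higher mean in LR for 12 of 16 measured genes of 18 listed. Without HR2835 this held for 10 of 16. Of all named genes, 46.3% were higher in HR, and 53.2% without HR2835. AVPR1A, the vasopressin receptor of vascular muscle, averaged 10.81 ± 0.29 in HR glands, against 10.69 ± 0.49 in LR glands. AGTR1, the angiotensin II receptor of vessels and of the zona glomerulosa, averaged 9.48 ± 0.61 in HR glands, against 9.83 ± 0.27 in LR glands, which differ by -0.36 (unadjusted p = 0.0827), and by -0.20 without HR2835 (unadjusted p = 0.173). EDNRB, an endothelin receptor, differed by -0.10, or -0.047 without HR2835, and KCNMB1, a subunit of the calcium-activated potassium channel of smooth muscle, by -0.12. Without HR2835, PTGFR, the receptor of prostaglandin F2 alpha, differed by -0.70 (unadjusted p = 0.0127) and ITPR1, a calcium release channel, by -0.55 (unadjusted p = 0.0134), against -0.45 and -0.35 with it. None passed after adjustment, and counts under an unadjusted p of 0.05 were 0 of 16 with all animals, beside 3.08% of the named genes, and 2 of 16 without HR2835, beside 8.04%.

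Among relatives of the members, CNN3, the calponin of many tissues, was the 1 gene of 15 with an unadjusted p under 0.05. It averaged 10.85 ± 0.22 in HR glands, against 11.09 ± 0.21 in LR glands, which differ by -0.24 (unadjusted p = 0.0241, and 0.0387 without HR2835) and did not pass over all probe sets. The share of all named genes under 0.05 was 3.08%, and 8.04% without HR2835, so that 1 gene of 15 is near the background. The cytoplasmic actins ACTB and ACTG1 differed by -0.13 and -0.087, and VIM, the intermediate filament protein of mesenchymal cells, by 0.045. Without HR2835 these were -0.0076, -0.058 and 0.12. Over the list, 7 genes were higher and 8 lower in HR, with a median difference of -0.025, and without HR2835 9 were higher and 6 lower, with a median of 0.029.

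Markers of other cell types that carry contractile or matrix genes were set beside these values. The mean level of 8 measured pericyte genes lay at 6.90 in HR2835, between 7.13 and 7.41 in the other HR animals and between 7.04 and 7.49 in LR. That of 10 striated muscle genes lay at 5.24 in HR2835, between 5.28 and 5.67 in the other HR animals and between 5.30 and 5.52 in LR. In this list TNNI2, a troponin of fast fibres, had the highest mean, 7.73 in HR glands, against 7.75 in LR glands, and the fast myosin MYH1 averaged 3.99 in HR glands, against 3.87 in LR glands. In the capsule and fibroblast list, 11 of 12 genes were lower in HR, with a median difference of -0.32, or -0.23 without HR2835 with 10 of 12 lower. Of all named genes, 46.3% were higher in HR, and 53.2% without HR2835. LUM (-0.66, unadjusted p = 0.012) and DCN (-0.35, unadjusted p = 0.032), proteoglycans of the collagen matrix, were below 0.05 before adjustment. Without HR2835 this held for LUM (-0.52, unadjusted p = 0.0234) but not for DCN (-0.31, unadjusted p = 0.0585). The count was thus 2 of 12 with all animals, beside 3.08% of all named genes. Without HR2835 it was 1 of 12, beside 8.04%, which is near the background. The mean level of this list lay between 8.23 and 8.70 in HR animals other than HR2835 (7.51) and between 8.25 and 9.09 in LR. COL1A1 and COL1A2, the brightest of the list, differed by -0.37 and -0.33, and by -0.21 and -0.17 without HR2835. The median difference of the contractile members was -0.016, and the part of capsule tissue in the values of single members was not tested.

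Median differences of the other marker lists lay between -0.10 and 0.29. The median difference was -0.038 for the 8 pericyte genes, among which RGS5 and ANPEP were the brightest, and 0.034 for the 10 striated muscle genes, of which 8 were higher in HR. It was -0.035 for 10 endothelial genes (4 higher and 6 lower in HR), -0.10 for 6 adipocyte genes (2 higher and 4 lower), -0.033 for 6 genes of the cortex (all lower) and 0.048 for 6 genes of the medulla (5 higher and 1 lower). Without HR2835 the median was -0.016 for pericyte, 0.074 for striated muscle, 0.010 for endothelial, -0.030 for adipocyte and 5.6e-04 for cortex genes. It was then 0.043 for medulla and 0.32 for red blood cell genes. The 4 measured genes of red blood cells were all higher in HR, with a median of 0.29, and ALAS2 (0.41, unadjusted p = 0.018 in limma) and AHSP (0.29, unadjusted p = 0.0359) were under 0.05 before adjustment. The count was 2 of 4 in both comparisons, beside 3.08% of all named genes, and 8.04% without HR2835. Of all named genes, 46.3% were higher in HR, and 53.2% without HR2835. In these lists 0 genes passed over all probe sets.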

How the data were processed

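Adrenal RNA of 20 pigs was measured with 1 array per animal, and groups follow the sample titles. The authors processed the scans with GCOS 1.1.1 and deposited log2 values normalized by RMA in Expression Console, which were used without further normalization. Their detection filter was not applied. After 123 controls were left out, 47722 probe sets were tested, of which 1858 belong to miRNA precursors. Columns of other samples numbered 0. Probe sets were named through the array annotation (26014 transcript probe sets with 1 symbol, 0 with several, 19850 without one), and each gene was represented by its transcript probe set of highest mean. The groups were tested with limma 3.58.1 under R 4.3.3, by lmFit and eBayes without a covariate with p-values adjusted after Benjamini-Hochberg for every probe set tested. This fit was tested on simulated data. Correlations within groups used two-sided permutation tests with 100000 resamples, exact with 9 animals, adjusted over each family of relations (numpy 2.4.6).

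Genes named are the members, in each list genes among the 3 brightest and the 2 with the smallest p, and the 10 genes most like the mean of the members. FLNA, TPM2, MYLK, SRF, MYOCD, PTGFR, ITPR1, COL3A1, CRYAB and the nearest genes of single members were named after their values were seen. The members and lists were chosen with earlier results of these data known. Alternatives were a filter on level, quantile normalization, median centring, another variance model, array weights, transcript probe sets only, means over probe sets, Spearman's rho, pooled animals, and leaving out each animal. The medians of the lists without HR2835 and the relations of members with their partner genes were added after seeing the data. P-values measure the spread between these animals.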

Additional observations from a re-analysis of the deposited data

Results flagged for a closer look

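In 5 of 20 sets of 10 values (each group and each probe set of a member) 1 animal lay far from the rest. The gap to its neighbour was above 0.466 of the range. About 1 set in 20 passes this limit when values are normal and sets independent. These sets were not independent, since they share the same animals. The share of sets flagged over the whole array was not computed. In 4 of the flagged sets the animal was HR2835, the lowest of HR, and both probe sets of ACTA2 were among them. Over all named genes, HR2835 held the lowest of the 20 values for 34.2%, so that these flags are not particular to the members. TAGLN lay at 8.66 in HR2835 and at 9.99 in the next HR animal, and DES at 6.98 and 7.89. ACTA2 lay at 9.68 in HR2835 and at 10.44 in the next HR animal, and its second probe set, SNOWBALL_023189_s_st, at 8.77 and 10.38. The fifth was the dim second probe set of SYNPO2, SNOWBALL_027476_st, at 1.86 in HR2857 and 1.53 in the next HR animal.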

How the results depend on the processing

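Under every alternative run, 0 probe sets and 0 members passed between HR and LR. The count of probe sets with an unadjusted p under 0.05 was 1741, and it was 730 with probe sets above the median level, 2995 with array weights, and 1440 to 3765 when each animal was left out, the highest without HR2835. With array weights, where HR2835 had a weight of 0.14, MYH11 differed by -0.032, TAGLN by 0.071, ACTG2 by 0.075 and SYNPO2 by -0.015, against the opposite sign with equal weights. When each animal was left out, differences ranged from -0.017 to 0.068 for MYH11, from -0.12 to 0.098 for TAGLN, from -0.15 to 0.076 for ACTG2 and from -0.031 to 0.087 for SYNPO2, and from -0.053 to 0.039 for its second probe set. ACTA2 (-0.16 to -0.011), DES (0.0019 to 0.17) and LMOD1 (-0.089 to -0.014) kept their sign. Without HR2835 the SD in HR was 0.16 for ACTA2, 0.20 for TAGLN, 0.18 for DES and 0.18 for SYNPO2, against 0.36, 0.58, 0.40 and 0.30 with it. Pairs that passed in HR numbered 1 with means over probe sets and 0 otherwise, and 3 over 20 animals with group means removed. The median r in LR was 0.25 after quantile normalization and 0.14 before it. Without HR2835, genes under an unadjusted p of 0.05 numbered 1 of the myosin list, 2 of the channel list, 1 of the pericyte list and 1 of the capsule list, against 0, 0, 0 and 2. The share over all named genes rose from 3.08% to 8.04% without HR2835. The medians of relatives (0.029), endothelial (0.010) and cortex genes (5.6e-04) then turned positive. Causes were not tested. No paired analysis was possible because the animal numbers are not shared between groups.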
